A study of Mus musculus with 12 samples.

Results

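The mitochondrial ribosomal proteins (Mrp) described here are the 78 of 26301 genes in the count table whose Entrez identifier maps to a mouse symbol beginning with Mrpl or Mrps and a number, pseudogenes left out. The mitochondrial ribosome is built in the matrix from ribosomal RNAs encoded by mitochondrial DNA and from proteins that are all encoded in the nucleus, translated in the cytosol and imported. It translates only the respiratory chain and ATP synthase subunits that mitochondrial DNA encodes, so its supply is tied to respiratory capacity, which is high in hepatocytes. Some of its proteins have counterparts in bacterial ribosomes, while others arose with the organelle. By known roles, 51 of the genes encode large subunit proteins (30 with a bacterial homologue and 21 specific to mitochondria) and 26 encode small subunit proteins (16 and 10), and Mrps36 encodes a subunit of the 2-oxoglutarate dehydrogenase complex.

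Polyadenylated RNA was sequenced from 12 mouse tissues in 3 groups of 4: non-tumor livers of wild-type adults (control), spontaneous liver tumors of adults with E2f7 and E2f8 deleted (DKO), and spontaneous liver tumors with E2f7, E2f8 and Rb1 deleted (TKO). Deletion was driven by Alb-Cre, in which the albumin promoter, described by the study as specific to hepatocytes, expresses Cre. Cells of a tumor without Cre activity keep the genes. All tissues came from ageing mice of an end-of-life study, and the control livers carried neither a tumor nor a deletion, so tumor state and genotype cannot be told apart against control. The study reports a longer tumor latency in DKO than in TKO mice. Age at collection may thus differ between the tumor groups together with Rb1 deletion, which was not tested. The study's methods give 4 livers for each condition, and p-values measure the spread between these samples. Sample descriptions carry letters, some shared within or across groups, whose meaning is not stated. Control 2 and 3 share a letter and differed least of the control pairs (chi-square per degree of freedom 19.9, other pairs 62.7 to 74.3). Total counts were 12845303, 9165812, 16190797 and 13864168 in control 1 to 4, 16424973, 13156779, 15065683 and 15450721 in DKO 1 to 4, and 16313303, 15325121, 12424532 and 10455159 in TKO 1 to 4. Levels below are CPM, counts scaled to a common library size by edgeR's TMM method, with the SD of 4 libraries after ±.

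The deleted genes were read first. Rb1, the retinoblastoma protein, had 8.29 ± 1.75 CPM in control, 9.003 ± 1.52 in DKO-labelled and 4.45 ± 0.975 in TKO-labelled libraries. The 4 TKO values, 3.21 to 5.47, lay below all 8 others, of which the lowest were 6.52 in control and 7.99 in DKO. E2f7, an atypical repressor of the E2F family, stood at 0.812 ± 0.239, 1.15 ± 0.716 and 0.803 ± 0.0882 CPM on 4 to 24 counts a library, and its paralog E2f8 at 6.24 ± 1.92, 20.5 ± 17.2 and 26.1 ± 18.5. Whole-gene counts are not split by exon, and they do not show the E2f7 and E2f8 deletions. The cause was not tested, and both tumor groups are called by their labels (DKO-labelled, TKO-labelled). The hepatocyte markers Alb, Apoa1, Ttr, Hnf4a, Cps1, Serpina1a and Cyp2e1 all passed the filter on low counts, and none was at 0 in any library. By edgeR's quasi-likelihood test 0 of the 7 were called in either tumor group. In DKO-labelled tumors 1 was lower at an unadjusted p under 0.05 and 1 by DESeq2, beside 11.1% and 4.93% of all genes lower. The 7 had log2 fold changes from -0.90 to 0.92 in DKO and from -0.82 to 0.44 in TKO against control, with 3 of them below 0 in each. Their summed level was 91638, 152704, 149340.0 and 118348 CPM in control 1 to 4, 323309, 236903, 136262 and 132932 in DKO 1 to 4 and 189609, 249093, 101042 and 59973 in TKO 1 to 4, with Alb the most abundant.

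In control livers the Mrp transcripts differed in level by over an order of magnitude when set per kilobase of the longest coding transcript. The highest levels per kilobase were those of Mrpl20, a large subunit protein with a bacterial homologue, at 47.7 ± 7.07 CPM per kilobase, Mrpl12, which forms the stalk that recruits translation factors, at 44.4 ± 8.70, and the mitochondria-specific Mrpl52, at 33.1 ± 13.5. At the other end stood Mrpl48 at 2.07 ± 0.262 and Mrps25 at 1.76 ± 0.253 CPM per kilobase. Mrpl36 was lowest at 0.558 ± 0.315 and had 3 to 15 counts a library. It failed edgeR's filter on low counts, so 77 of the 78 genes were tested, among 13882 genes in all. Exons are shared with another gene for 53.7% of the bases of Mrps25 and 41.9% of those of Mrpl48, so their levels are uncertain where counting did not use strand.

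The summed CPM of the 78 genes was 1522, 2031, 1727 and 1593 in control 1 to 4, 1282, 1408, 1350.3 and 1529.8 in DKO 1 to 4 and 1736, 1506, 1619 and 1458 in TKO 1 to 4. DKO-labelled tumors were the lowest group, and only DKO 4 reached the control range, just above control 1. Group means were 1718 ± 225, 1393 ± 105 and 1579.6 ± 124, with TKO-labelled tumors between the other groups and overlapping both. As a share of total counts, without TMM scaling, means were 0.164 ± 0.0112% in control, 0.139 ± 0.0282% in DKO and 0.168 ± 0.0210% in TKO libraries. The order of TKO and control thus depends on the scaling. In bulk tissue, fewer cells that express these genes and less of their RNA per cell cannot be told apart. The ratio of summed large to summed small subunit CPM was 2.20, 2.31, 2.22 and 2.31 in control, 2.24, 2.33, 2.29 and 2.26 in DKO and 2.41, 2.44, 2.29 and 2.50 in TKO libraries. The control and DKO ranges overlapped, whereas TKO 1, 2 and 4 exceeded every control and DKO value, and this difference was not tested.

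**Figure D1:**
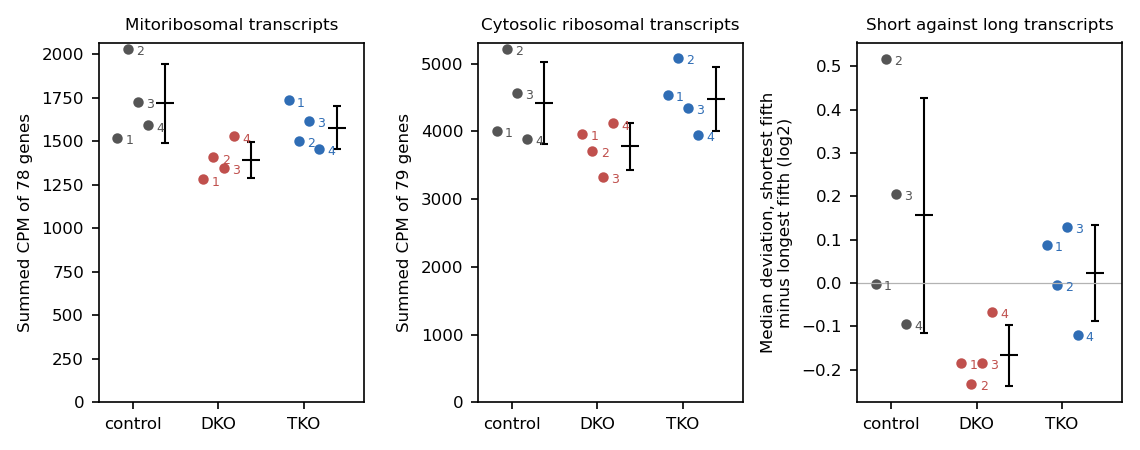
Summed CPM of the 78 Mrp genes (left) and of 79 cytosolic ribosomal protein genes (middle), and the median log2 deviation of genes in the shortest minus that of genes in the longest of 5 length classes (right), in 3 groups of libraries. Each point is 1 library with its replicate number, and bars give the mean and SD; DKO 1, 2 and 3 have the 3 lowest Mrp sums, at 1282 to 1408 CPM, and control 2 has the highest, at 2031.

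Albumin and cycling-cell markers were read beside the Mrp values. Albumin is 1 of the 7 hepatocyte markers, of which 3 had log2 fold changes below 0 in each tumor group. Its share alone is therefore not a measure of hepatocyte content. Albumin took 6.57, 9.79, 10.1 and 8.83% of all counts in control 1 to 4, 22.7, 19.4, 12.5 and 11.9% in DKO 1 to 4 and 15.5, 18.9, 7.03 and 4.82% in TKO 1 to 4. Every DKO-labelled tumor exceeded every control, whereas the TKO range extended past the control range on both sides. The 4 cycling-cell markers Mki67, Top2a, Ccnb1 and Cdk1 summed to 11.5, 6.15, 6.78 and 15.8 CPM in control, 42.1, 76.7, 29.9 and 17.5 in DKO and 47.8, 19.0, 9.51 and 33.2 in TKO libraries, with Cdk1 the most abundant over the 12 libraries and none at 0. All 4 had log2 fold changes above 0 in both tumor groups, and Mki67 rose in DKO-labelled tumors (log2 fold change 2.89, SE 0.595, adjusted p = 0.0425 by edgeR's quasi-likelihood test with Benjamini-Hochberg adjustment). Mki67 did not pass when any 1 of the controls, DKO 1, 2 or 4, or TKO 1 was left out (adjusted p 0.0253 to 0.134 over the 12 sets of libraries, by the same edgeR quasi-likelihood test), nor with total counts as the only scaling or a Y-linked covariate. The other 3 did not pass with all libraries, though DESeq2 called all 4, where it called 1518 genes of the whole table in either direction. In TKO-labelled tumors edgeR called 0, with 3 at an unadjusted p under 0.05. DESeq2 called 1 there, and 507 genes of the whole table in either direction. Of 13882 genes, edgeR called 196 higher in DKO and 7 in TKO against control. Other shares of all genes higher are not given. The part of either measure in the Mrp values was not tested.

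The first comparison set tumors labelled E2f7/E2f8-deleted against wild-type liver. Mrp transcripts were mostly lower: the median log2 fold change of the 77 tested was -0.34, where the median of all 13882 genes was 0.02, and 70 of the 77 were below 0, where 48.4% of all genes were. By edgeR's quasi-likelihood test with Benjamini-Hochberg adjustment over all genes, 3 of the 77 fell at a threshold of 0.05 and 0 rose, while 1.01% of all genes were called lower. The 3 are Mrpl14, Mrpl18 and Mrps31. At an unadjusted p under 0.05, 35 were lower and 0 higher, beside 11.1% of all genes lower. With total counts as the only scaling 21 were lower at this threshold, and the share of all genes is not given there. DESeq2 called 13 lower, beside 4.93% of all genes, and limma voom 18, beside 6.31%. Every DKO-labelled library lay below every control for 19 of the 77, against 7.3% of all genes. Fewer of the 77 did so with total counts as the only scaling.

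The calls depend on single libraries. Of the 77, 0 were called without control 2, 3 or 4 or without DKO 1, 2 or 4, where 0 to 7 genes of the whole table were called. Without control 1 only Mrpl14 was called, without TKO 1 only Mrpl18, and without DKO 3 or TKO 2 Mrpl18 and Mrps31. All 3 passed without TKO 3, with Mrpl55 as well, and without TKO 4, with Mrpl58, where 1.95% and 1.18% of all genes were called lower. The median ranged from -0.39 to -0.24, and the latter came without control 2, the library with the highest Mrp sum. Without control 2, 19 in place of 35 were lower at an unadjusted p under 0.05. The share of all genes at that threshold is not given for this set, where 0 genes of the whole table were called after adjustment. The count of 19 without overlap was 36 without control 1 and 32 without DKO 4, where 12% and 10.6% of all genes had none.

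Among large subunit genes, Mrpl14 had the lowest log2 fold change. Its protein sits at the face that joins the small subunit. Its level was 10.6, 28.6, 15.4 and 20.9 CPM in control 1 to 4 and 6.90, 6.88, 7.28 and 11.4 in DKO 1 to 4. DKO 4 stood apart from the other 3 tumors and overlapped control 1, the lowest control. Mrpl14 fell by 1.21 on the log2 scale (SE 0.283, adjusted p = 0.0488 by edgeR's quasi-likelihood test with Benjamini-Hochberg adjustment), whereas the exact two-sided permutation test of the 8 values gave p = 0.0571, where 0.0286 is the smallest possible. The gene (Entrez 68463, chr17:45823271-45835444 in mm9, plus strand) shares 11.2% of its exonic bases with Tmem63b, whose own log2 fold change was -0.13. Mrpl14 did not pass when control 2, 3 or 4, any 1 of the DKO libraries, TKO 1 or TKO 2 was left out (adjusted p 0.0327 to 0.145 over the 12 sets of libraries, by the same edgeR quasi-likelihood test). Nor did it pass with total counts as the only scaling, a replicate block, a Y-linked covariate or the offset for length and GC content (adjusted p up to 0.103, same edgeR quasi-likelihood test).

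Mrpl18, a protein of the central protuberance, had 19.4, 21.6, 22.1 and 19.8 CPM in control and 10.5, 12.9, 13.5 and 14.98 in DKO libraries. All 4 tumors lay below all 4 controls. It fell by 0.67 (SE 0.137, adjusted p = 0.0425, edgeR's quasi-likelihood test with Benjamini-Hochberg adjustment). It did not pass when any 1 of the controls or DKO 1, 2 or 4 was left out (adjusted p 0.0276 to 0.134 over the 12 sets of libraries, by the same edgeR quasi-likelihood test). With total counts as the only scaling and with a Y-linked covariate the call was lost too (adjusted p up to 0.172, same edgeR quasi-likelihood test). The gene (Entrez 67681, chr17:13104215-13109211 in mm9, minus strand) shares 10.1% of its exonic bases with Tcp1, a chaperonin subunit with a log2 fold change of 0.04. Of the large subunit genes that did not pass, Mrpl33 had 13.1, 29.1, 18.0 and 14.9 CPM in control and 11.9, 10.2, 11.2 and 11.9 in DKO libraries, with no overlap and a log2 fold change of -0.73 (SE 0.236). Its value was -0.87 without control 1 and -0.44 without control 2, its highest control. Mrpl12 had 44.6, 72.0, 61.3 and 55.6 CPM in control and 43.5, 29.2, 36.4 and 43.0 in DKO libraries, also without overlap, at -0.62 (SE 0.175). DESeq2 called Mrpl12 but not Mrpl33.

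At the other end of the large subunit, Mrpl20 had 43.2, 35.0, 34.0 and 30.8 CPM in control and 27.9, 35.1, 55.2 and 42.2 in DKO libraries, so the groups overlapped widely (log2 fold change 0.17, SE 0.202). Without DKO 3, the highest tumor, its log2 fold change was -0.03. Mrpl10, which anchors the Mrpl12 stalk, Mrpl19 and Mrpl50 were the other large subunit genes among the 5 highest, at 0.07, 0.03 and 0.02, each smaller than its SE and each with the other sign under 1 to 3 of 21 other settings. Over the 29 tested genes with a bacterial homologue the median was -0.43, with 2 called, 19 at an unadjusted p under 0.05 lower and 8 called by DESeq2. Over the 21 mitochondria-specific genes it was -0.27, with 0 called by edgeR, 6 at an unadjusted p under 0.05 lower and 2 called by DESeq2. The shares of all genes lower were 1.01% by edgeR, 11.1% unadjusted and 4.93% by DESeq2. The difference between these classes was not tested.

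In the small subunit, Mrps31, a mitochondria-specific protein, had 22.5, 25.3, 22.0 and 20.9 CPM in control and 13.6, 15.03, 16.3 and 15.7 in DKO libraries. Every tumor lay below every control. It fell by 0.58 (SE 0.118, adjusted p = 0.0425, edgeR's quasi-likelihood test with Benjamini-Hochberg adjustment), and the gene (Entrez 57312, chr8:23521812-23540137 in mm9, plus strand) shares no exonic base with another gene. It did not pass when any 1 of the controls, DKO 1, 2 or 4, or TKO 1 was left out (adjusted p 0.0253 to 0.134 over the 12 sets of libraries, by the same edgeR quasi-likelihood test). The call was also lost with total counts as the only scaling, a Y-linked covariate, the length and GC offset (adjusted p up to 0.169 over these, same edgeR quasi-likelihood test) or no filter on low counts. Mrps24 had 19.3, 36.5, 24.8 and 23.1 CPM in control and 19.0, 14.1, 12.6 and 18.3 in DKO libraries. DKO 1 came just under control 1, so the groups did not overlap, but the log2 fold change of -0.69 (SE 0.250) did not pass. Mrps6 had the highest value of the 77, with 6.16, 7.87, 7.39 and 6.96 CPM in control and 7.82, 10.8, 8.22 and 9.91 in DKO libraries. Its DKO range began within the control range, just below control 2, and its log2 fold change of 0.38 (SE 0.221) did not pass either. Mrps6 shares 43.8% of its exonic bases with the transporter gene Slc5a3. Medians were -0.38 over 16 small subunit genes with a bacterial homologue and -0.26 over 10 mitochondria-specific ones.

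Mrps36, which carries the name without being a ribosomal protein, had 3.56, 4.18, 4.54 and 2.12 CPM in control and 2.22, 1.11, 2.13 and 2.06 in DKO libraries, on 14 to 67 counts. Control 4 fell among the tumors, and its log2 fold change of -0.93 (SE 0.312) did not pass. The Mrps18 paralogs take different places in the ribosome, Mrps18a in the large subunit and Mrps18b and Mrps18c in the small one, and their values differed too. Mrps18c had 12.5, 20.2, 13.7 and 10.7 CPM in control and 8.43, 10.2, 9.11 and 10.7 in DKO libraries, which touch at DKO 4 and control 4. Mrps18b had 15.1, 24.8, 18.8 and 20.3 and 9.97, 11.9, 14.8 and 22.8, and Mrps18a 13.3, 21.9, 17.8 and 16.1 and 11.0, 15.6, 13.9 and 26.6, in both cases with DKO 4 above 3 of the 4 controls or all of them. Log2 fold changes were -0.56 (SE 0.207), -0.40 (SE 0.232) and -0.04 (SE 0.340), none past the test. That of Mrps18c ran from -0.68 without control 4 to -0.36 without control 2. Mrps18b ran from -0.68 without DKO 4 to -0.27 without DKO 1. With the length and GC offset Mrps18c and Mrps18b each had -0.29. That of Mrps18a changed sign in 6 of 21 other settings.

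**Figure D2:**
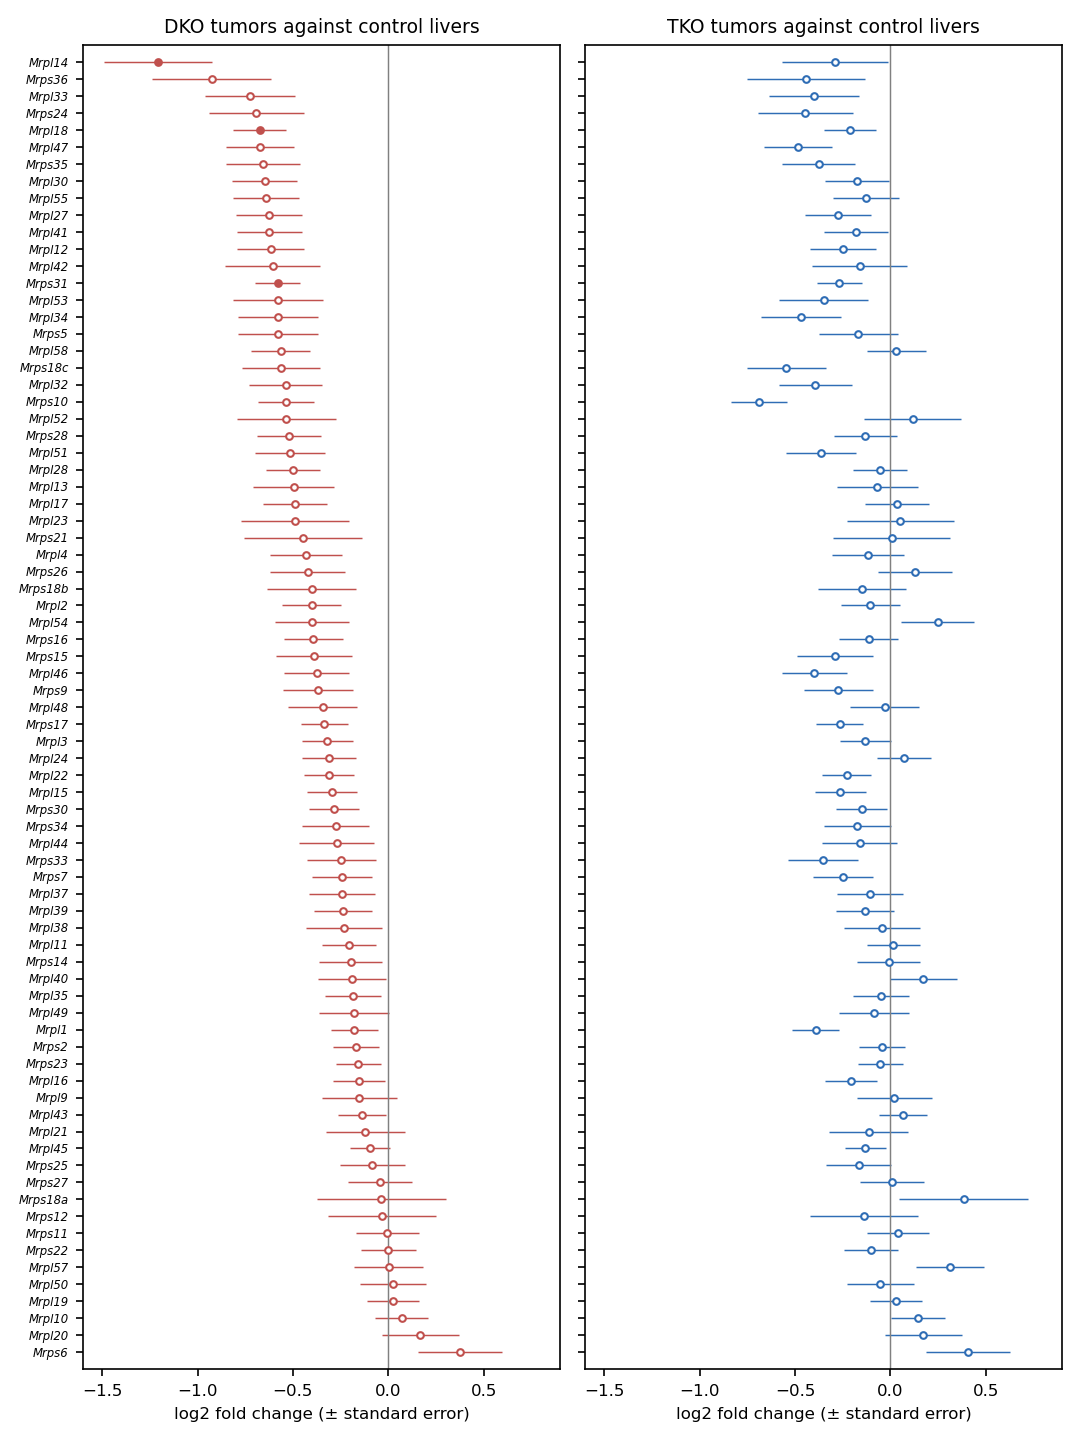
Log2 fold change (points) and its standard error (bars) of the 77 tested genes in DKO-labelled (left) and TKO-labelled tumors (right) against control livers, sorted by the left panel. Filled points passed edgeR's test after adjustment: Mrpl14, Mrpl18 and Mrps31 on the left and 0 genes on the right, and 70 points on the left and 57 on the right lie below 0.

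Tumors labelled as also lacking Rb1 were compared with the same 4 control libraries, so this comparison is not independent of the first. The median log2 fold change of the 77 was -0.13 beside 0.02 for all genes, and 57 were below 0, where 47.5% of all genes were. By edgeR's quasi-likelihood test with Benjamini-Hochberg adjustment 0 were called in either direction, with 0.036% of all genes called lower. At an unadjusted p under 0.05, 8 were lower and 0 higher, beside 6.33% of all genes lower. DESeq2 called 1, beside 1.53% of all genes, and limma voom 1, beside 0.303%. Every TKO-labelled library lay below every control for 3 (Mrpl1, Mrps10 and Mrps17), against 3.29% of all genes. Without TKO 3, 1 was called (Mrps10), but the share of all genes called lower rose as well, to 0.522%. With total counts as the only scaling the median was 0.03, but the median of all genes then moved to 0.17, and relative to it the 77 stood at -0.15. Under that scaling 32 of the 77 were below 0, and at an unadjusted p under 0.05, 1 was lower and 1 higher. The 3 genes without overlap became fewer too. Shares of all genes for these counts are not given.

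Mrps10, a small subunit protein with a bacterial homologue (chr17:47505836-47518366 in mm9, plus strand), had 23.7, 19.7, 22.4 and 19.99 CPM in control, 13.1, 12.6, 15.6 and 12.01 in TKO and 15.1, 12.1, 13.8 and 18.0 in DKO libraries. All 8 tumors lay below all 4 controls, and the tumor groups overlapped. Its log2 fold change in TKO against control was -0.69 (SE 0.145), with an adjusted p of 0.0941 by edgeR's quasi-likelihood test with Benjamini-Hochberg adjustment, the lowest of the 77 but not past 0.05. It was called by DESeq2 (adjusted p = 0.00399), by limma voom and by edgeR without TKO 3 (adjusted p = 0.0363), where 0.522% of all genes were called lower. Adjusted p ranged from 0.00399 to 0.309 over its alternatives.

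The other low values in TKO-labelled tumors were Mrps18c at -0.55 (SE 0.207), Mrpl47, a protein near the exit of the peptide tunnel, at -0.48 (SE 0.177), Mrpl34 at -0.47 (SE 0.210) and Mrps24 at -0.45 (SE 0.249). With 1 library left out, Mrps18c ran from -0.66 to -0.34 and Mrps24 from -0.59 to -0.24, both nearest 0 without control 2. With the length and GC offset Mrps18c was -0.32. Above 0 stood Mrps6 at 0.41 (SE 0.221), Mrps18a at 0.38 (SE 0.339), Mrpl57 at 0.31, Mrpl54 at 0.25 and Mrpl40 at 0.17. With 1 library left out, Mrps6 ran from 0.22 to 0.54 and Mrpl57 from 0.13 to 0.42, both lowest without TKO 1. Mrpl54 ran from 0.13 without control 1 to 0.41 without control 2, and Mrpl40 from 0.12 to 0.27. Mrps18a had 19.5, 13.8, 17.1 and 39.6 CPM in TKO 1 to 4, and its value rests on TKO 4, since it was -0.04 without that library. The count of 8 at an unadjusted p under 0.05 was 2 without control 2, 3 without TKO 2, 15 without TKO 1, and 5 without control 3, DKO 2 or TKO 4. Shares of all genes at this threshold are not given for these sets, so these counts cannot be set against them. The count of 3 without overlap was 11 without control 4, 9 without TKO 1, 8 without control 1 and 5 without TKO 3, where 6.72%, 4.69%, 5.35% and 7.3% of all genes had none. The median ranged from -0.20 to -0.04, the latter without control 2.

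Between the tumor groups the sign was the other way. In TKO against DKO the median log2 fold change of the 77 was 0.19 (all genes 0.01). Of the 77, 66 were above 0 and 11 below, where 48.8% of all genes were below. By edgeR's quasi-likelihood test with Benjamini-Hochberg adjustment 0 of the 77 and 0% of all genes were called. DESeq2 and limma voom also called 0 of the 77, where they called 56 and 0 genes of the whole table. At an unadjusted p under 0.05, 14 were higher and 0 lower, beside 5.16% of all genes higher, and 13 were higher without overlap, beside 2.75%. Mrpl14 had 17.2, 12.9, 18.0 and 13.4 CPM in TKO 1 to 4, all above the 4 DKO values, with a log2 fold change of 0.92 (SE 0.282). Mrpl58, the peptidyl-tRNA hydrolase that rescues stalled ribosomes, had 13.6, 15.5, 12.9 and 14.8 CPM in control, 8.43, 9.18, 9.82 and 11.0 in DKO and 14.95, 15.2, 17.0 and 10.9 in TKO libraries. Its control values lay within the range of the TKO values, and TKO 4 came below DKO 4. Its log2 fold change was 0.60 (SE 0.153), and its adjusted p of 0.407, by the same test, was the lowest of the 77.

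Mrpl54, Mrpl52 and Mrps26 were the other highest values in TKO against DKO, at 0.65 (SE 0.192), 0.65 (SE 0.256) and 0.55 (SE 0.196). With the length and GC offset Mrpl54 stood at 0.37 and Mrpl52 at 0.35, whereas the lowest value of Mrps26 under other settings was 0.54. Mrpl54 had 5.98, 4.51, 4.97 and 5.25 CPM in DKO and 8.92, 7.25, 8.97 and 7.39 in TKO libraries, and Mrpl52 9.28, 9.97, 7.57 and 10.7 and 19.1, 11.9, 14.0 and 13.9. Both were higher in every TKO library. The lowest values were those of Mrpl1, a protein of the stalk that guides tRNA out, at -0.21, Mrps10 at -0.15, Mrps33 at -0.11, Mrps22 at -0.10 and Mrps12, a protein of the decoding site, at -0.10. With 1 library left out, Mrpl1 ran from -0.26 to -0.15, Mrps10 from -0.24 to -0.04 and Mrps33 from -0.23 to -0.05. Mrps22 ran from -0.23 to -0.03, and Mrps12 from -0.37 without TKO 1 to 0.0005 without TKO 2. Medians were 0.22 and 0.21 over the large subunit genes with and without a bacterial homologue, and 0.10 over both small subunit classes.

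The Mrp transcripts are short, with a median longest coding transcript of 1219 bases where the median of 12677 tested genes was 2960, and 50 of the 77 fell in the shortest of 5 length classes of equal size, up to 1686 bases. In the shortest class the median log2 fold change of all genes was -0.18 in DKO against control, -0.06 in TKO against control and 0.12 in TKO against DKO, and in the longest class it was 0.14, 0.07 and -0.08. The 50 Mrp genes of the shortest class had medians of -0.40, -0.13 and 0.25. The median deviation of a library in the shortest minus that in the longest class was 0.00, 0.52, 0.21 and -0.09 in control 1 to 4, -0.18, -0.23, -0.18 and -0.07 in DKO 1 to 4 and 0.09, 0.00, 0.13 and -0.12 in TKO 1 to 4. Control 2 stood highest and the 4 DKO libraries were all negative, in a range that held control 4 and TKO 4 as well. With an offset for length and GC content in each library, the medians of the 77 were -0.26, -0.10 and 0.13 and those of all genes -0.05, -0.02 and 0.03, a difference of -0.21, -0.08 and 0.10. edgeR then called 2 in DKO against control (Mrpl18 and Mrpl58), beside 1.7% of all genes lower, and Mrpl14 and Mrps31 no longer passed, at -0.91 and -0.47.

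**Figure D3:**
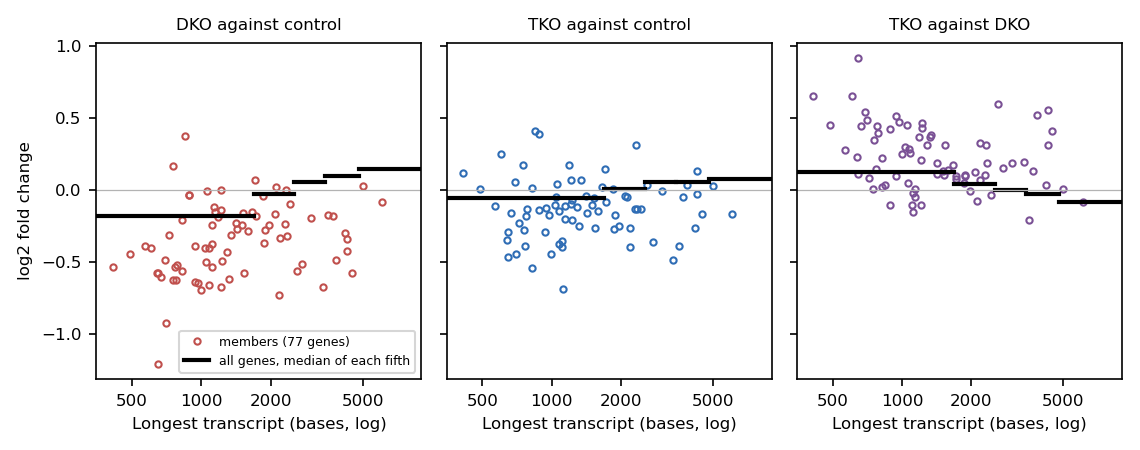
Log2 fold change of the 77 tested genes (circles) against the length of the longest coding transcript in bases (log axis) in the 3 comparisons. Black lines are the medians of all genes in 5 length classes, which run from -0.18 to 0.14 in DKO against control; in the shortest class the circles have medians of -0.40, -0.13 and 0.25.

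Many Mrp genes lie close to or over another gene. Of the 78, 27 share exonic bases with another gene and 17 share over 10%, 29 have the start of a coding gene on the opposite strand within 1000 bases, and 4 (Mrps36, Mrpl23, Mrpl27 and Mrpl48) have a named pseudogene. Whether strand was used in counting is not stated, so reads from overlapping genes cannot be told apart. The median in DKO against control was -0.34 over the 27 tested genes with such overlap and -0.35 over the 50 without. Mrpl47 and Ndufb5, a complex I subunit, overlap and start 157 bases apart on opposite strands. Ndufb5 fell (-0.87, adjusted p = 0.0376 by edgeR's quasi-likelihood test with Benjamini-Hochberg adjustment) and Mrpl47 had -0.67 without passing. Mrpl49 and Fau, which encodes a cytosolic ribosomal protein fused to a ubiquitin-like domain, start 135 bases apart and had -0.18 and -0.86, of which the second passed. Mrpl46 and Mrps11 overlap head to head, at -0.38 and 0.00, and Mrps12 lies 171 bases from Sars2, at -0.03 and -0.81, and none of these 4 passed. Neither Ndufb5 nor Fau passed without control 2, 3 or 4 or without DKO 1, 2 or 4, nor Fau without TKO 1 (adjusted p 0.0249 to 0.132 and 0.0312 to 0.134 over the 12 sets of libraries, by the same edgeR quasi-likelihood test), and neither did with total counts as the only scaling or a Y-linked covariate.

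Other genes of mitochondrial translation had medians nearer 0 in DKO against control. Mitoribosome subunits that carry other names had a median of -0.10 over 5 (Aurkaip1 -0.57, Gadd45gip1 -0.51, Chchd1 -0.06, Dap3 -0.06), and the translation factors -0.26 over the 14 tested of 15. The latter ran from the elongation factors Tsfm, at -0.45, to Tufm, at 0.20, with the translational activator Taco1 at -0.44 and the recycling factor Mrrf at 0.11. Genes of ribosome assembly and ribosomal RNA modification had a median of -0.17 over 24 (Mrm3 -0.66, Rbfa -0.55, Eral1 0.07, Ddx28 0.07), and the mitochondrial aminoacyl-tRNA synthetases with the amidotransferase -0.01 over 20 (Sars2 -0.81, Nars2 -0.68, Pars2 0.32, Mars2 0.40). edgeR's quasi-likelihood test called 0 in these 4 lists. At an unadjusted p under 0.05, 2, 3, 6 and 2 were lower, beside 11.1% of all genes, and 1 gene of the last list was higher. DESeq2 called 0, 0, 1 and 0 lower, beside 4.93% of all genes, and limma voom 1, 1, 4 and 1, beside 6.31%. With the length and GC offset edgeR called 1 assembly gene, beside 1.7%. In TKO against control edgeR called 0 in each, and medians were -0.22, -0.15, -0.03 and -0.03. There 1, 3, 2 and 2 were lower at an unadjusted p under 0.05, beside 6.33% of all genes, and DESeq2 called 0, 0, 1 and 0 lower, beside 1.53%. Without TKO 3, 1 gene of the last list was called lower in DKO and 1 in TKO against control, where 1.95% and 0.522% of all genes were. The 13 mRNAs that the mitochondrial ribosome translates were not analysed here.

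Of 15 genes that maintain and transcribe mitochondrial DNA, with a median of -0.23 in DKO against control, Polg2 fell. It encodes the accessory subunit of the mitochondrial DNA polymerase and had 4.30, 7.99, 6.51 and 5.27 CPM in control and 2.53, 2.37, 2.01 and 2.59 in DKO libraries, with no overlap (-1.33, SE 0.235, adjusted p = 0.0333 by edgeR's quasi-likelihood test with Benjamini-Hochberg adjustment). The RNA-binding Slirp stood at -0.62, the nuclease Mgme1 at 0.12 and the helicase Twnk at 0.30, none past the test. Of the 15, edgeR called 1 lower, beside 1.01% of all genes. At an unadjusted p under 0.05, 4 were lower, beside 11.1% of all genes, and DESeq2 and limma voom each called 3 lower, beside 4.93% and 6.31%. Of 9 regulators of nuclear mitochondrial genes, with a median of -0.04, the coactivator Ppargc1b fell. It had 6.38, 17.2, 17.3 and 11.3 CPM in control and 3.37, 3.08, 4.14 and 2.42 in DKO libraries, again with no overlap (-1.998, SE 0.405, adjusted p = 0.0425 by edgeR's quasi-likelihood test with Benjamini-Hochberg adjustment). In TKO 1 to 4 it had 9.04, 14.6, 9.97 and 3.73 CPM, 3 of them within the control range. Myc stood at -0.78, Nrf1, a factor that binds many nuclear mitochondrial genes, at 0.16 and Pprc1 at 0.53. Of the 9, edgeR called 1 lower, beside 1.01% of all genes, and DESeq2 1, beside 4.93%. At an unadjusted p under 0.05, 1 was lower and 1 higher, beside 11.1% of all genes lower. Neither edgeR call, of Polg2 or of Ppargc1b, was made without control 2, control 3, control 4, DKO 1, DKO 2 or DKO 4, and that of Ppargc1b was also lost without TKO 1 (adjusted p 0.0235 to 0.126 and 0.0286 to 0.134 over the 12 sets of libraries, by the same edgeR quasi-likelihood test). Polg2 did not pass with total counts as the only scaling (-1.27), and neither gene passed with a Y-linked covariate (-1.24 and -2.31). In TKO against control edgeR called 0 in both lists, with medians of -0.17 and -0.08, or 1 gene of the first list without TKO 3, where 0.522% of all genes were called lower. With all libraries 2 and 1 were lower and 0 and 2 higher at an unadjusted p under 0.05, beside 6.33% of all genes lower, DESeq2 called 1 and 0, beside 1.53%, and limma voom 1 and 0, beside 0.303%.

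The 12 markers of mitochondrial content had a median of -0.18 in DKO against control, between Tomm40 at -0.60, Timm23 at -0.37, the chaperonin Hspd1 at 0.11 and citrate synthase (Cs) at 0.22. edgeR's quasi-likelihood test called 0, DESeq2 and limma voom 0, where they called 1.01%, 4.93% and 6.31% of all genes lower, and 4 were lower at an unadjusted p under 0.05, beside 11.1%. Their summed CPM was 1390.3, 1578, 1597 and 1369 in control, 1284, 1526, 1436 and 1532 in DKO and 1566, 1415, 1349 and 1567 in TKO libraries, with wide overlap.

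Nuclear genes of the respiratory chain, whose products join those of the mitochondrial ribosome, and of the cytosolic ribosome had medians below 0 too. The respiratory chain and ATP synthase subunits, 77 tested of 85, had a median of -0.51, and 6 fell by edgeR's quasi-likelihood test. These were the complex I subunits Ndufb7 (-1.19), Ndufs7 (-1.06), Ndufa12 (-0.96), Ndufb5 (-0.87) and Ndufs8 (-0.63) and the complex IV subunit Cox7c (-1.02). Ndufa3 was lower still, at -1.31, without passing, and Atp5e and Ndufa4l2 were highest, at 0.05 and 0.69. DESeq2 called 28, beside 4.93% of all genes. Cytosolic ribosomal proteins, 79 tested, had a median of -0.29, and Rps18 (-0.97), Fau (-0.86) and Rpl37a (-0.73) fell. Rps29 had -1.08 without passing, Rps24 0.15 and Rps15a 0.29, and DESeq2 called 8. In the first list 54 and in the second 27 were lower at an unadjusted p under 0.05, beside 11.1% of all genes. Thus the Mrp median of -0.34 lies between these lists, and no test of the differences was run. The 6 respiratory calls became 0 without control 2, control 3, DKO 1, DKO 2 or DKO 4, 1 without control 4 or TKO 1, 4 without DKO 3, 10 without control 1, 11 without TKO 3 and 9 without TKO 4; in the last 3 sets 0.699%, 1.95% and 1.18% of all genes were called lower, beside 1.01% with all libraries. The 3 cytosolic calls became 0 without control 2, 3 or 4 or DKO 1, 2 or 4, 1 without TKO 1, and 2 without control 1, DKO 3 or TKO 2. Both became 0 with total counts as the only scaling or with a Y-linked covariate, and limma voom called 37 and 9, beside 6.31% of all genes. In TKO against control edgeR called 0 in both lists, with medians of -0.25 and 0.00. At an unadjusted p under 0.05, 15 and 1 were lower, beside 6.33% of all genes. DESeq2 called 1 (Cox7c) and 0, beside 1.53%, and limma voom 0 and 0, beside 0.303%.

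The promoters of these genes were searched for motifs of factors known to bind nuclear mitochondrial genes, of E2F and of E-box factors, on both strands of 300 bases (250 before and 50 after the start) from RefSeq, build GRCm38.p6. Of the 78 genes 69 have an entry. GCGCATGC (NRF1) was in 8 of 69 (11.6%) and in 3.05% of 27025 genes, CCGGAAGT (ETS factors) in 12 (17.4%) and 4.31%, and AAGATGGC (YY1) in 12 (17.4%) and 3.19%. In the 100 bases before the start alone, YY1 was in 1 (1.45%) and 0.618% of all genes, and 8 of the 12 have a match after the start. Among the 10424 tested genes with an entry the shares over 300 bases were 5.61%, 8.77% and 5.07%. TTTCCCGC or TTTGGCGC (E2F) was in 2 (2.90%) and 1.80%, and CACGTG (E-box) in 5 (7.25%) and 8.09%, with shares of 3.33% and 11.6% among tested genes, above those of the Mrp genes. At least 1 of the first 3 motifs was found in 29 genes. In DKO against control the median log2 fold change was -0.36 with and -0.34 without the NRF1 motif, -0.47 and -0.31 for ETS, and -0.18 and -0.38 for YY1. A match is a description of letters and not a bound site.

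The 100 bases before the start are printed 5′ to 3′ on the strand of the gene for 6 genes, with matches in capitals. Mrpl14 and Mrps31 are shown as genes that fell, and Mrps10 as the lowest in TKO-labelled tumors; none of these windows holds any of the motifs. Mrpl18, which fell too, has an ETS match that begins 240 bases before the start; it is not printed because its 100 bases lie in a coding transcript. The 3 printed lie at chr17:45686249-45686348, chr8:22411240-22411339 and chr17:47369097-47369196 (GRCm38.p6, plus strand). Mrpl33, among the 5 lowest in DKO against control, and Mrpl32, with the most matches, carry the NRF1 motif, and Mrps26 the ETS motif. They lie at chr5:31613851-31613950 (plus strand), chr13:14613038-14613137 (minus strand) and chr2:130563657-130563756 (plus strand). In Mrpl32 the run GCGCATGCGC holds the motif on both strands, and GCATGCGC is a match on the opposite strand, as is ACTTCCGG in Mrps26.
Mrpl14: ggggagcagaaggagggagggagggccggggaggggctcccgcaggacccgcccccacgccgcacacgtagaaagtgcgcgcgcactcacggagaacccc
Mrps31: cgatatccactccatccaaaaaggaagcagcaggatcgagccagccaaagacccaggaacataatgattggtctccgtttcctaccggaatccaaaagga
Mrps10: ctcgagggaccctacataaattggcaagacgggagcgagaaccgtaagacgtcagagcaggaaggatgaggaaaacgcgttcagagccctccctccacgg
Mrpl33: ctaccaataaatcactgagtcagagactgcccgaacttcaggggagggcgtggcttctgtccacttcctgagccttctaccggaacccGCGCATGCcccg
Mrpl32: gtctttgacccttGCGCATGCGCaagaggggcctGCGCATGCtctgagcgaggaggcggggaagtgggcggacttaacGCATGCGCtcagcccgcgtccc
Mrps26: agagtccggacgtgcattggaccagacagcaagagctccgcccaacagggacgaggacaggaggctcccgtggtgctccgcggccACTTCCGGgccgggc

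These values have limits. Transcripts were measured in bulk tissue, and neither ribosomal protein, ribosome assembly nor mitochondrial translation was. Each group has 4 libraries, and most calls were lost without 1 of them. Both tumor groups share the control libraries, and no tumor without a deletion or liver with the deletion alone was sequenced. With the offset for length and GC content the Mrp medians were nearer 0, and whether short transcripts differed through handling or through the tissue was not tested. Counts of overlapping genes may hold reads of their neighbours. Promoters and gene positions come from different genome builds and were not combined.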

How the data were processed

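RNA from 12 snap-frozen livers and liver tumors was poly(A)-selected and sequenced on the SOLiD platform. The authors mapped reads to mm9 with BWA and ran featureCounts on Entrez genes, so the table they deposited holds unscaled counts. Versions, strand setting and treatment of multi-mapping reads are not stated. Of 26301 Entrez identifiers 24191 matched a RefSeq symbol. The Mrp genes and the other lists (mitoribosome subunits with other names, translation factors, assembly, synthetases, mitochondrial DNA maintenance, regulators, content, respiratory subunits, cytosolic ribosomal proteins, cell type markers) were chosen with earlier results of these data known.

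Total counts ran from 9165812 to 16424973 a library. Counts were analysed in R 4.3.3 with edgeR 4.0.16 (TMM scaling, filterByExpr, 1 quasi-likelihood model of all 12 libraries, Benjamini-Hochberg adjustment over all tested genes, threshold 0.05). log2 CPM used a prior count of 2. Exact permutation tests used the 70 assignments of 4 against 4. Levels per kilobase and positions used GENCODE vM1 on mm9, and promoters RefSeq on GRCm38.p6. Python 3.11.15 with scipy 1.17.1 and matplotlib 3.10.9 handled annotation and drawing. The code was tested on simulated data.

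Named genes are every Mrp gene called by edgeR, the 5 highest and 5 lowest log2 fold changes in each comparison, the 3 highest and 3 lowest levels per kilobase in control, genes outside the filter, Mrps36, the Mrps18 paralogs, and the deleted genes. Of each other list they are the called genes and the 2 highest and 2 lowest log2 fold changes in DKO against control. Others (such as Mrps17, Mrpl55 and overlapping neighbours) were chosen after their values were seen. Alternatives were DESeq2 1.42.0, its size factors in edgeR, total counts, upper quartile scaling, no filter, at least 10 counts in every library, only the 8 libraries compared, a replicate block, a Y-linked covariate, a length and GC offset (splines with 4 degrees of freedom), limma 3.58.1 voom with quality weights, an adjusted p under 0.1, and each library left out in turn. No library or value column was left out of the main analysis, and 1 planned list of cell type markers is not reported.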

Additional observations from a re-analysis of the deposited data

Results flagged for a closer look

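Of 165 sets of 4 values (the measures of each library and the named genes, in each group), 8 hold a sample far from the other 3 by Dixon's test, which chance gives in about 1 of 20 sets. Mrp genes took 0.1803% of counts in control 2 and 0.157 to 0.160% in the other controls. Mrps12 stood at 25.6 CPM in control 1 and 11.0 to 12.3 in the others. Among DKO-labelled tumors, Mrpl14 stood at 11.4 CPM in DKO 4 (others 6.88 to 7.28), Mrpl50 at 69.1 in DKO 2 (51.1 to 52.6), Mrps36 at 1.11 in DKO 2 (2.06 to 2.22) and Mrpl36, with few counts, at 0.537 in DKO 1 (0.236 to 0.237). Among TKO-labelled tumors, Mrpl1 stood at 20.04 in TKO 2 (23.9 to 24.5) and Mrps31 at 21.8 in TKO 3 (17.5 to 18.1).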

How the results depend on the processing

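Of 113 counts and medians of Mrp genes under other settings, 101 kept their direction and size, as did 109 of 124 with 1 library left out. For named Mrp genes these were 288 of 306 and 373 of 408. The 3 genes called lower in DKO against control were 15 at an adjusted p under 0.1, 13 by DESeq2, 18 by limma voom, 5 with only the 8 libraries compared, 2 with a replicate block (Mrpl18 and Mrps31), 0 with total counts, 0 with a Y-linked covariate, and 0 to 4 with 1 library left out. Of all genes, 1.01% were called lower, and under these settings 4.69%, 4.93%, 6.31%, 2.32%, 1.48%, 0.0504%, 0% and 0 to 1.95%. The 0 called lower in TKO against control by edgeR (8 at an unadjusted p under 0.05) was 1 at an adjusted p under 0.1, 1 by DESeq2, 1 by limma voom and 0 to 1 with 1 library left out, where 0.187%, 1.53%, 0.303% and 0 to 0.522% of all genes were called lower, beside 0.036%.

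Medians in DKO against control ran from -0.38 to -0.26 under other settings and from -0.39 to -0.24 with 1 library left out. In TKO against control the median was 0.027 with total counts, on the other side of 0, where the median of all genes was 0.17. Total counts took the genes without overlap from 19 to 8 in DKO and from 3 to 1 in TKO against control, and leaving out 1 library gave 19 to 36 and 3 to 11. With 1 library left out, 7.97 to 12% and 3.92 to 7.3% of all genes had no overlap. The share of all genes under total counts is not given. For TKO against DKO the median stayed from 0.13 to 0.28. The cause of these changes was not tested. Correlations between libraries with the same replicate number ran from -0.17 to 0.37, and 6 of 12 libraries correlated best with 1 of their own number. Whether the numbers mark pairs is not stated. In the 100 bases before the start all 5 motif shares of the Mrp genes were lower, as were those of all genes. Depth limits Mrpl36, with 3 to 15 counts a library.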

Other observations

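The marker lists not given above were summed per library. Bile duct markers (Krt7, Krt19, Epcam, Sox9, Spp1) summed to 39.3, 28.6, 49.4 and 31.9 CPM in control 1 to 4, 59.1, 48.3, 108 and 24.4 in DKO 1 to 4 and 54.9, 34.9, 31.2 and 39.6 in TKO 1 to 4. Endothelial markers (Pecam1, Kdr, Stab2, Lyve1, Clec4g) summed to 134, 98.0, 97.8 and 139 CPM in control 1 to 4, 109, 122, 165 and 113 in DKO 1 to 4 and 136, 145, 244 and 118 in TKO 1 to 4. Macrophage markers (Clec4f, Adgre1, Cd68, Vsig4, Marco) summed to 328, 122, 158 and 305 CPM in control 1 to 4, 104, 104, 274 and 42.6 in DKO 1 to 4 and 102, 188, 329 and 79.5 in TKO 1 to 4. Stellate cell and fibroblast markers (Lrat, Des, Col1a1, Col3a1, Dcn) summed to 273, 285, 225 and 312 CPM in control 1 to 4, 190.0, 139, 472 and 124 in DKO 1 to 4 and 174, 213, 323 and 264 in TKO 1 to 4. Red cell markers (Hba-a1, Hbb-b1, Alas2) summed to 651, 724, 564 and 727 CPM in control 1 to 4, 820.3, 517, 401 and 1516 in DKO 1 to 4 and 1389, 559, 1162 and 621 in TKO 1 to 4. Over the 12 libraries the most abundant genes were Spp1, Kdr, Clec4f, Dcn and Hbb-b1, and no marker was at 0 in any library. Krt7 did not pass the filter. By edgeR's quasi-likelihood test 0 of the others were called in DKO or TKO against control. At an unadjusted p under 0.05, 2 endothelial markers were higher in DKO and 1 in TKO against control. Shares of all genes higher at this threshold are not given. In TKO against control 1 macrophage marker was lower, beside 6.33% of all genes lower. DESeq2 called 2, both endothelial and higher in DKO against control, where it called 1518 genes of the whole table in either direction. The endothelial list was mixed there, with 2 of 5 log2 fold changes below 0, in a range from -0.82 to 2.18. The part of these lists in the Mrp values was not tested.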
